A study of Homo sapiens with 16 samples.

Results

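The mitochondrial ribosomal protein genes were followed in HCC4006, an established human lung adenocarcinoma line that carries an activating EGFR mutation. They were taken as the loci whose symbol is MRPL or MRPS with a number, with or without a letter A, B or C, and whose mean was at least 1 FPKM. FPKM counts sequenced fragments relative to the length of the transcript and to the mapped fragments in that library. The symbols matched 79 of 24293 loci. For MRPS18B, 6 further rows on other versions of its chromosome 6 region were set aside, and all of the remaining 73 genes passed the threshold. The gene nearest the threshold was MRPS25, with a mean of 3.01 FPKM over 16 libraries, the next was MRPS14 at 11.7 FPKM, and no symbol fell under it. Cells were grown for 24 hours and then treated for 24 hours with gefitinib and AZ1366 together (100 nM each; called the combination), with gefitinib alone at 100 nM, with AZ1366 alone at 100 nM, or with DMSO (vehicle). Gefitinib inhibits the EGFR kinase, and AZ1366 inhibits the tankyrases. Each of the 4 groups held 4 libraries of polyA RNA. All are from 1 cell line. Since the labels name no separate cultures, the p-values speak only of the spread between these libraries, which may be technical.

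Mitochondrial ribosomes make the small set of membrane proteins that mitochondrial DNA encodes, all of them subunits of the oxidative phosphorylation complexes. Their RNAs come from mitochondrial DNA, but every protein of the ribosome is encoded in the nucleus, made in the cytosol and imported. Many of the proteins have bacterial counterparts, and the others are found only in mitochondria. The large subunit forms the peptide bond and holds the exit tunnel, the small subunit reads the messenger RNA, and the stalk of the large subunit recruits the translation factors. Of the 73 genes, 48 encode large-subunit proteins and 24 small-subunit proteins. MRPS30 and MRPS18A are counted with the large subunit, where their proteins sit despite their names. The remaining gene, MRPS36, is named as a small-subunit gene, but its protein is now known to tie together the α-ketoglutarate dehydrogenase complex of the citric acid cycle. By origin, 46 have a bacterial counterpart and 26 are specific to mitochondria.

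The genes are scattered over the genome. The stretches around the start of 4 genes that fell with gefitinib (MRPL12, MRPL16, MRPS30 and MRPS34) and of 3 that rose (MRPL33, MRPS14 and MRPS21) are shown so that their motifs can be set beside the changes. They were picked after their values were seen. Each runs from 70 bases before the start to 30 bases after it, 5′ to 3′ on the strand of the gene, from RefSeq on GRCh38.p14. Capitals mark the letters CCGGAAG of the ETS family (the motif of GABP), AAGATGG of YY1, and TGCGCA, a short form of the NRF1 motif, on either strand.
MRPL12 (chr17:81703297-81703396, plus strand): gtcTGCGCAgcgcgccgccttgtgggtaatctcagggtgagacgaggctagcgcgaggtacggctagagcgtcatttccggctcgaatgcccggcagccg
MRPL16 (chr11:59810749-59810848, minus strand): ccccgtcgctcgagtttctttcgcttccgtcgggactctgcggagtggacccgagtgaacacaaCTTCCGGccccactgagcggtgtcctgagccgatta
MRPS30 (chr5:44808877-44808976, plus strand): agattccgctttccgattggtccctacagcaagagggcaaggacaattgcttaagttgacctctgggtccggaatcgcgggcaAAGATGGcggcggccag
MRPS34 (chr16:1773105-1773204, minus strand): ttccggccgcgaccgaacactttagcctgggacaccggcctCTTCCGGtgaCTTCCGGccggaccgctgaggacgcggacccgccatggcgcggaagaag
MRPL33 (chr2:27771649-27771748, plus strand): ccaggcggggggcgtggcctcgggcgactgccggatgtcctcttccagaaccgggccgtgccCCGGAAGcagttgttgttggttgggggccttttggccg
MRPS14 (chr1:175023396-175023495, minus strand): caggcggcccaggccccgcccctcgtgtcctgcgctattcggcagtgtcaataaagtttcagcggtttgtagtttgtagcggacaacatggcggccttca
MRPS21 (chr1:150293791-150293890, plus strand): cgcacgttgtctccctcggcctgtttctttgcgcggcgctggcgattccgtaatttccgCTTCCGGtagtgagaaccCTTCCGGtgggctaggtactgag
The ETS letters stood close to the start in MRPL16 and MRPS34, which fell, and in MRPL33 and MRPS21, which rose. MRPL12 held the short NRF1 form, MRPS30 held the YY1 letters just after its start, and MRPS14 held none of the 3 motifs in this stretch.

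Read numbers are not stated, which leaves the depth unknown. Summed over all loci, each library held 433357 to 478179 deposited FPKM. The epithelial markers EPCAM, CDH1, KRT7, KRT8, KRT18 and KRT19 stood at 128 FPKM or more in every library. Of 10 leukocyte, endothelial and fibroblast markers, 8 were at most 0.682 FPKM in every library and COL1A1 reached 2.11 FPKM. CD68 averaged 59.1 FPKM with the combination, 51.7 FPKM with gefitinib, 41.3 FPKM with AZ1366 and 35.3 FPKM with vehicle, while the leukocyte markers PTPRC and CD3E stayed at or under 0.139 FPKM. The part of CD68 in the results was not tested. Median-ratio scaling divides each library by its median ratio to the average library. Its factors lay between 0.904 and 0.984 for the combination, 0.994 and 1.06 for gefitinib and 1.05 and 1.09 for vehicle. Among AZ1366 libraries, replicate 1 stood apart at 1.09, against 0.912 to 0.972 in the other 3. The median log2 change of all 11647 tested loci as deposited was -0.15 for the combination against vehicle, -0.10 for AZ1366 against vehicle and -0.10 for the combination against gefitinib, and close to 0 in each after scaling. Counts over all 73 genes are therefore given for both scales, and those of smaller groups as deposited unless stated. Since FPKM is relative to the mapped fragments of each library, a change in total RNA per cell is not seen. In these bulk libraries, a change in the mix of cell states and a change within each cell cannot be told apart.

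Mitochondrial ribosomal protein genes were well expressed. Their median level was 40.1 FPKM over the 16 libraries, against 10.1 FPKM for all tested loci. The highest means belonged to MRPL33 (170.4 FPKM), MRPL51 (139.8 FPKM), MRPS21 (124.1 FPKM) and MRPL3 (123.5 FPKM). The lowest belonged to MRPS25, MRPS14, MRPL2 (13.1 FPKM) and MRPL30 (14.4 FPKM). The order at the top differed between groups. With the combination, MRPL33 averaged 183 ± 5.74 FPKM, MRPS21 155.6 ± 9.42 FPKM, MRPL51 146 ± 7.16 FPKM and MRPL3 103 ± 2.39 FPKM. With vehicle, MRPL3 averaged 145 ± 9.61 FPKM, MRPL33 138 ± 12.2 FPKM, MRPL51 134 ± 2.28 FPKM and MRPS21 95.1 ± 7.81 FPKM (SD, n = 4 each). Among vehicle libraries the first 3 of these overlapped, and MRPS21 lay below them.

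Gefitinib lowered more of these genes than it raised. Against vehicle, 33 of 73 fell and 6 rose, called at an adjusted p under 0.05 in a limma fit across all tested loci on log2(FPKM + 1). Of all tested loci 36.9% were called lower and 27.7% higher, and of the members 45.2% and 8.22%. The median change of the members was -0.14, against -0.06 for all loci. After median-ratio scaling 25 fell and 6 rose, where 33.9% of loci were lower and 33.1% higher, and the member median was -0.07, against 0.00. The share that fell lay above the background as deposited and near it after scaling, and the share that rose lay under it on both scales. In 28 genes every gefitinib library lay below every vehicle library, and in 5 every one lay above, where 35.7% and 25.2% of all loci did so. Of the 48 large-subunit genes 20 fell and 1 rose (15 and 2 after scaling), and of the 24 small-subunit genes 13 fell and 4 rose (10 and 3 after scaling). Of genes with a bacterial counterpart 23 of 46 fell and 4 rose (18 and 3 after scaling), and of those specific to mitochondria 10 of 26 fell and 1 rose (7 and 2 after scaling).

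**Figure D1:**
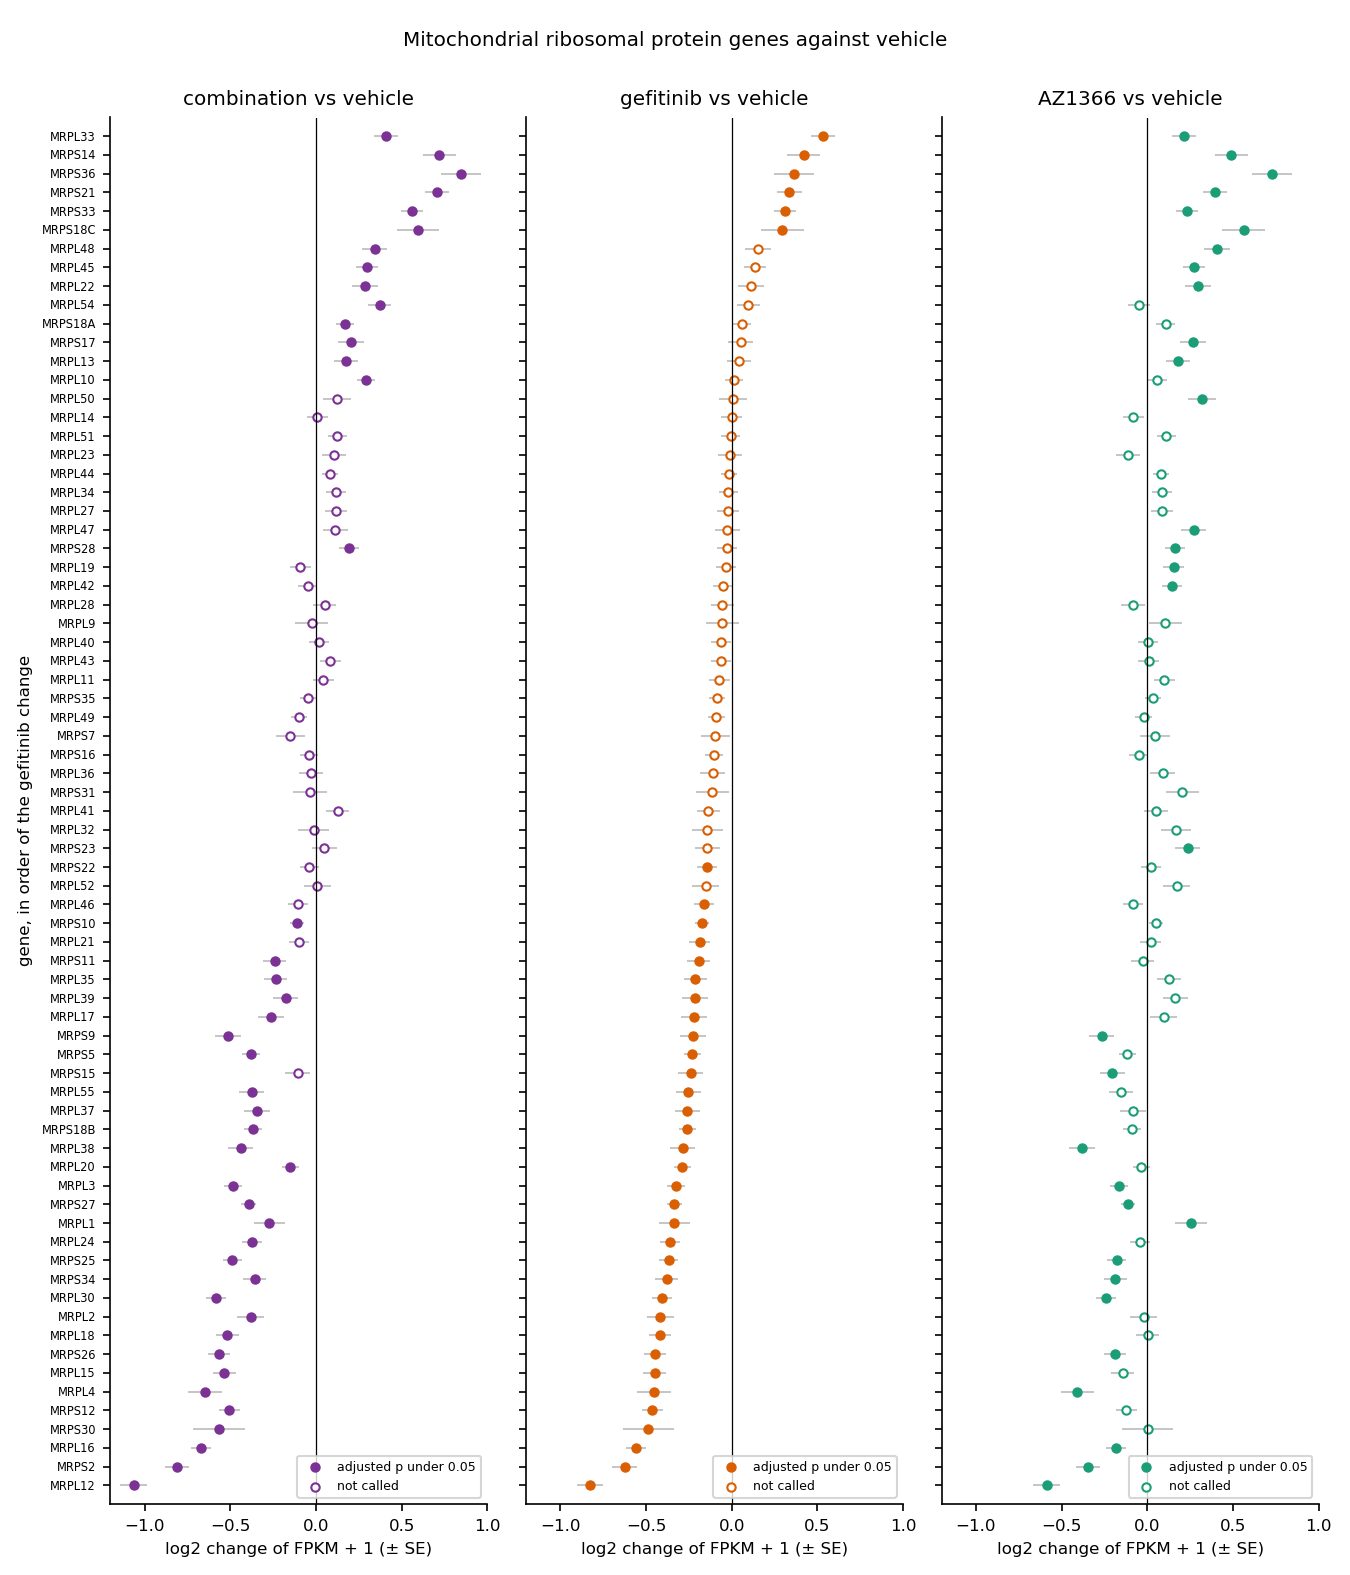
Log2 change of FPKM + 1 (horizontal axis, ± SE, n = 4 libraries per group) of the 73 genes, ordered by the gefitinib change, for the combination, gefitinib and AZ1366 against vehicle. Filled points are called at an adjusted p under 0.05: MRPL12 lies lowest in all 3 panels, and 33 genes fell with gefitinib against 13 with AZ1366.

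The deepest fall was in MRPL12, the stalk protein that binds translation factors (chr17:79670400-79674556 on hg19). It had 37.3, 43.5, 36.5 and 43.1 FPKM in the gefitinib libraries, against 81.3, 67.0, 68.4 and 70.8 FPKM with vehicle. All gefitinib libraries lay far below all vehicle libraries, with a ratio of means of 0.558 and a log2 change of -0.83 ± 0.08 (SE), adjusted p = 6.93e-08. MRPS2, a small-subunit protein related to bacterial S2 (chr9:138392477-138396519), had 25.2, 25.3, 24.3 and 26.9 FPKM with gefitinib, against 45.3, 35.6, 37.4 and 41.4 FPKM with vehicle. Again the groups did not overlap, and the log2 change was -0.63 ± 0.07 (SE), adjusted p = 6.32e-07.

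MRPL16, whose bacterial relative lies close to the peptidyl transferase centre (chr11:59573608-59578345), had 19.98, 21.1, 20.6 and 19.8 FPKM with gefitinib, against 28.7, 31.8, 31.3 and 29.9 FPKM with vehicle. The spread within each group was small beside the gap, and the log2 change was -0.56 ± 0.06 (SE), adjusted p = 1.84e-07. MRPS12, the counterpart of the bacterial decoding-centre protein S12, had 25.3, 26.0, 24.9 and 29.2 FPKM with gefitinib, against 37.3, 35.9, 35.6 and 37.8 FPKM with vehicle, a log2 change of -0.46 ± 0.06 (SE), adjusted p = 3.87e-06. MRPS30, a mitochondria-specific large-subunit protein (chr5:44809027-44815618), had 32.8, 37.7, 34.7 and 33.5 FPKM with gefitinib, against 40.6, 65.5, 51.6 and 41.6 FPKM with vehicle. The groups did not overlap, but the vehicle libraries of MRPS30 were spread widely, and its change of -0.49 ± 0.15 (adjusted p = 0.00916) had the largest error of these genes.

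The other large falls came from both subunits. MRPL4, related to a protein that lines the exit tunnel, averaged 22.8 ± 1.44 FPKM with gefitinib and 31.6 ± 2.30 FPKM with vehicle (SD, n = 4 each), a log2 change of -0.45 ± 0.10. MRPL15, of the large subunit, averaged 24.9 ± 0.324 FPKM with gefitinib and 34.5 ± 2.36 FPKM with vehicle, a change of -0.45 ± 0.07. MRPS26, a mitochondria-specific small-subunit protein, averaged 27.4 ± 1.87 FPKM with gefitinib and 37.8 ± 0.742 FPKM with vehicle, a change of -0.45 ± 0.07. These 3 fell with adjusted p = 0.000646, 1.98e-05 and 1.28e-05. Of the genes with the lowest levels, MRPL2 (-0.42 ± 0.08), MRPL30 (-0.41 ± 0.06) and MRPS25 (-0.37 ± 0.06) fell too. MRPL3, the most abundant of the 73 with vehicle, averaged 116 ± 3.34 FPKM with gefitinib, against 145 ± 9.61 FPKM, and fell by 0.32 ± 0.05 (SE), adjusted p = 4.16e-05.

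The 6 genes that rose with gefitinib were led by MRPL33, a small large-subunit protein with a transcript of 461 nucleotides (chr2:27994584-28002608). It had 194, 186, 203 and 215 FPKM with gefitinib, against 121, 138, 146 and 148 FPKM with vehicle. The groups did not overlap, and the log2 change was 0.53 ± 0.07 (SE), adjusted p = 3.76e-06. Corrected for transcript length and GC content, its change was 0.29 (adjusted p = 8.43e-05).

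MRPS14, related to bacterial S14 of the small-subunit head (chr1:174982094-174992591), had 10.9, 10.4, 12.7 and 12.6 FPKM with gefitinib, against 7.19, 8.97, 9.15 and 8.48 FPKM with vehicle, a log2 change of 0.42 ± 0.10 (SE), adjusted p = 0.000967. MRPS21, the counterpart of bacterial S21 (chr1:150266269-150280819), had 115, 113, 118 and 135 FPKM with gefitinib, against 84.1, 100.2, 101 and 95.1 FPKM with vehicle, a log2 change of 0.34 ± 0.07 (SE), adjusted p = 0.000605. Both genes were higher in every gefitinib library than in any vehicle library. MRPS33, specific to mitochondria, averaged 76.5 ± 4.41 FPKM with gefitinib, against 61.5 ± 3.71 FPKM with vehicle (SD, n = 4 each), a change of 0.31 ± 0.06 (SE), adjusted p = 0.000391. MRPS36, the α-ketoglutarate dehydrogenase adaptor (chr5:68513573-68525985), had 26.7, 27.4, 27.8 and 32.6 FPKM with gefitinib, against 16.9, 28.8, 22.9 and 20.8 FPKM with vehicle. The groups overlapped through vehicle replicate 2, and the change of 0.36 ± 0.12 (SE), adjusted p = 0.0123, was 0.17 and not called after the length and GC correction (adjusted p = 0.0822).

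The 3 relatives of bacterial S18 gave 3 different calls with gefitinib. MRPS18A, in the large subunit, averaged 14.5 ± 0.806 FPKM with gefitinib and 13.8 ± 0.708 FPKM with vehicle (SD, n = 4 each) and was not called (0.06 ± 0.05, adjusted p = 0.348). MRPS18B had 59.6, 62.0, 58.3 and 58.4 FPKM with gefitinib, against 72.0, 72.4, 72.0 and 69.3 FPKM with vehicle, and fell by 0.26 ± 0.05 (SE), adjusted p = 0.000329. MRPS18C had 44.9, 42.8, 48.0 and 49.6 FPKM with gefitinib, against 30.5, 42.03, 40.3 and 38.3 FPKM with vehicle. It rose by 0.29 ± 0.12 with adjusted p = 0.0472, close to the threshold, and was not called after median-ratio scaling (0.36, adjusted p = 0.0575) or the length and GC correction (0.15, adjusted p = 0.215). MRPL41 (-0.14 ± 0.07, adjusted p = 0.0887) and MRPL44, a large-subunit protein with a ribonuclease III fold (-0.02 ± 0.05, adjusted p = 0.748), were not called.

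**Figure D2:**
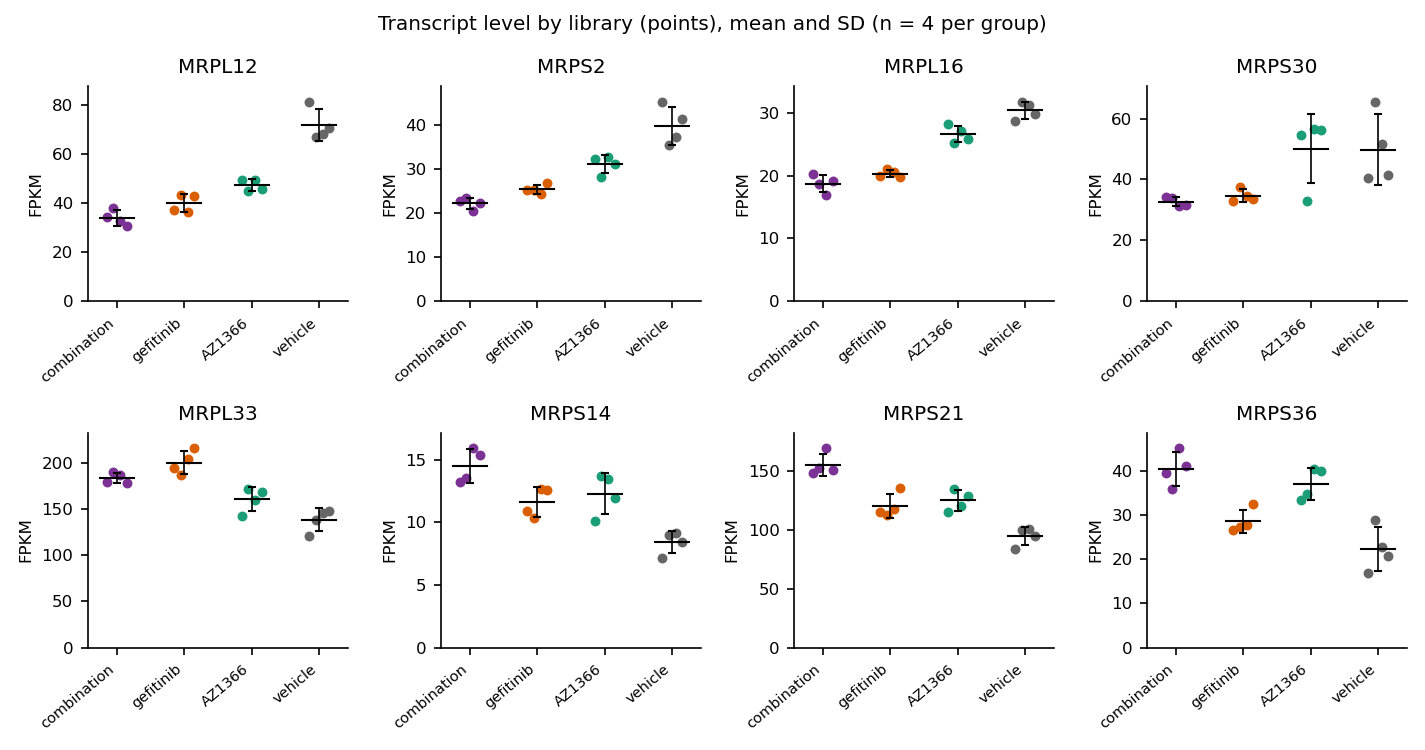
FPKM (vertical axis, from 0) in each library (points) of 8 genes in the combination, gefitinib, AZ1366 and vehicle groups, with the mean and SD of 4 libraries. MRPL12, MRPS2 and MRPL16 lie lower in every treated library than in any vehicle library, MRPL33, MRPS14, MRPS21 and MRPS36 lie highest with a treatment, and MRPS30 shows 1 low AZ1366 library at 33.0 FPKM.

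With AZ1366 alone, 18 of 73 genes rose and 13 fell against vehicle. This was 24.7% and 17.8% of the members, where 18.6% and 39.8% of all tested loci were called higher and lower. The member median was 0.03, which lay 0.14 above that of all loci. After median-ratio scaling 34 rose and 6 fell, against 30.4% and 30.3% of loci, with the member median 0.15 above that of all loci. In 10 genes the AZ1366 libraries lay above all vehicle libraries and in 10 below, where 14.6% and 26% of loci did so. The split by subunit depended on the scale. As deposited, 10 of 48 large-subunit genes rose and 6 fell, and of the 24 small-subunit genes 7 rose and 7 fell. After median-ratio scaling 23 large-subunit genes rose and 4 fell, and 10 small-subunit genes rose and 2 fell. After the length and GC correction 5 large-subunit genes rose and 16 fell (10.4% and 33.3%), and 6 small-subunit genes rose and 9 fell (25% and 37.5%). Of all loci 29.5% were then higher and 30.7% lower.

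MRPS36 rose most with AZ1366, with 33.4, 34.7, 40.4 and 40.1 FPKM, against 16.9, 28.8, 22.9 and 20.8 FPKM with vehicle. The groups did not overlap, and the log2 change was 0.73 ± 0.12 (SE), adjusted p = 0.000104. After the length and GC correction it was 0.40 and still called, but the largest member change was then 0.42, in another gene. MRPS18C followed with 41.2, 63.8, 61.6 and 60.1 FPKM in the AZ1366 libraries, against 30.5, 42.03, 40.3 and 38.3 FPKM with vehicle. Its replicate 1 lay among the vehicle libraries and the other 3 far above them, for a log2 change of 0.56 ± 0.12 (SE), adjusted p = 0.00121.

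MRPS14 (0.49 ± 0.10), MRPL48 (0.41 ± 0.07) and MRPS21 (0.39 ± 0.07) rose with no overlap between groups. MRPL50 (0.32 ± 0.08) rose with overlapping groups. MRPL22, whose bacterial counterpart lines the exit tunnel (0.30 ± 0.08), and MRPL45, which lies by the tunnel exit at the inner membrane (0.27 ± 0.06), rose without overlap. For MRPL45 the gap was small, with 31.17 FPKM in its lowest AZ1366 library and 31.16 FPKM in its highest vehicle library. These 6 had adjusted p between 0.000264 and 0.00319. MRPL33 rose by 0.22 ± 0.07 (adjusted p = 0.0139) with AZ1366, but its change was -0.10 after the length and GC correction (adjusted p = 0.102).

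MRPL12 fell most with AZ1366 too, to 49.5, 44.9, 49.5 and 45.7 FPKM, against 81.3, 67.0, 68.4 and 70.8 FPKM with vehicle, with no overlap and a log2 change of -0.59 ± 0.08 (SE), adjusted p = 1.77e-05. MRPL4 had 27.4, 18.3, 25.5 and 24.0 FPKM with AZ1366, against 34.7, 31.9, 29.4 and 30.5 FPKM with vehicle, with no overlap and a change of -0.41 ± 0.10 (SE), adjusted p = 0.0021. MRPL38, a mitochondria-specific large-subunit protein, averaged 26.7 ± 2.08 FPKM with AZ1366 and 35.2 ± 4.19 FPKM with vehicle (SD, n = 4 each), a change of -0.38 ± 0.07 (SE), adjusted p = 0.000471. MRPS2 (-0.35 ± 0.07), MRPS9 (-0.27 ± 0.07), MRPL30 (-0.24 ± 0.06), MRPS15 (-0.21 ± 0.07) and MRPS26 (-0.19 ± 0.07) were the next in size, with adjusted p of at most 0.0247. After median-ratio scaling MRPS15 (adjusted p = 0.312) and MRPS26 (adjusted p = 0.234) were no longer called.

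Both single-compound comparisons use the same vehicle libraries, so their values are only set side by side. MRPL1, which in bacteria forms the mobile stalk at the tRNA exit site, had 38.0, 41.2, 41.4 and 40.04 FPKM with gefitinib, 56.1, 55.2, 69.3 and 63.8 FPKM with AZ1366 and 42.9, 63.1, 52.2 and 47.3 FPKM with vehicle. It fell by 0.34 ± 0.09 (SE), adjusted p = 0.00407 with gefitinib, and rose by 0.25 ± 0.09 (SE), adjusted p = 0.025 with AZ1366. Its AZ1366 and vehicle groups overlapped, and after the length and GC correction the AZ1366 change was 0.05 (adjusted p = 0.544). The joined locus of SLC5A3 and MRPS6, outside the 73, had changes of -0.20 ± 0.08 with gefitinib and 0.21 ± 0.08 with AZ1366 (adjusted p = 0.0395 and 0.0386), and reads of its 2 genes cannot be separated. MRPS30 was not called with AZ1366 (0.00 ± 0.15, adjusted p = 0.99), with libraries at 54.7, 33.0, 56.5 and 56.1 FPKM.

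With the combination MRPL12 and MRPS36 moved furthest of the 73 genes as deposited, in opposite directions. Against vehicle, 15 of 73 rose and 29 fell, where 29.9% and 49.4% of all loci did, and 20.5% and 39.7% of the members. The member median of -0.05 lay 0.10 above that of all loci. After median-ratio scaling 30 rose and 22 fell, where 40.4% and 40.3% of loci did, with the member median 0.13 above that of all loci. In 15 genes all combination libraries lay above all vehicle libraries and in 29 below, against 28.4% and 48.1% of loci.

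MRPL12 had 34.2, 38.1, 32.5 and 30.5 FPKM with the combination, against 81.3, 67.0, 68.4 and 70.8 FPKM with vehicle, so the combination mean was 0.471 of the vehicle mean (log2 change -1.06 ± 0.08 (SE), adjusted p = 8.91e-10). MRPS2 had 22.7, 23.5, 20.5 and 22.3 FPKM with the combination, against 45.3, 35.6, 37.4 and 41.4 FPKM with vehicle (log2 change -0.81 ± 0.07 (SE), adjusted p = 8.87e-09). Neither gene had overlapping groups. MRPL16 (-0.67 ± 0.06), MRPL4 (-0.65 ± 0.10), MRPL30 (-0.59 ± 0.06), MRPS26 (-0.57 ± 0.07), MRPS30 (-0.57 ± 0.15) and MRPL15 (-0.54 ± 0.07) completed the 8 largest falls, with adjusted p between 6.62e-09 and 0.00229. MRPS12 (-0.51 ± 0.06) and MRPL3 (-0.49 ± 0.05) fell by somewhat less, with adjusted p = 5.95e-07 and 1.63e-07.

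MRPS36 had 39.6, 35.9, 45.1 and 41.1 FPKM with the combination, against 16.9, 28.8, 22.9 and 20.8 FPKM with vehicle, a ratio of means of 1.81 and a log2 change of 0.85 ± 0.12 (SE), adjusted p = 3.56e-06. MRPS14 had 13.2, 13.6, 15.9 and 15.4 FPKM with the combination, against 7.19, 8.97, 9.15 and 8.48 FPKM with vehicle, a change of 0.72 ± 0.10 (SE), adjusted p = 2.06e-06. MRPS21 had 149, 153, 169.6 and 151 FPKM with the combination, against 84.1, 100.2, 101 and 95.1 FPKM with vehicle, a change of 0.71 ± 0.07 (SE), adjusted p = 7.9e-08. The combination libraries of all 3 lay above every vehicle library. MRPS18C (0.59 ± 0.12), MRPS33 (0.56 ± 0.06), MRPL33 (0.41 ± 0.07), MRPL54 (0.37 ± 0.07) and MRPL48 (0.34 ± 0.07) were the other leading rises, with adjusted p of at most 0.000397. For MRPL33 the length and GC correction left 0.01 (adjusted p = 0.881), for MRPL54 0.13 and for MRPL48 0.21, both still called. For MRPS36 it left 0.49, still called but under the largest member change of 0.66.

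Added to gefitinib, AZ1366 raised 13 of the 73 genes and lowered 6, against 15.3% and 37.2% of all loci. The member median of 0.06 lay 0.16 above that of all loci. After median-ratio scaling 36 rose and 1 fell, where 26.6% and 27.9% of loci did. In 12 genes the combination lay above all gefitinib libraries and in 7 below, where 14.2% and 34.4% of loci did so. The count of rises moved with single libraries. It was 8 without gefitinib replicate 1, 7 without combination replicate 3 and 22 without gefitinib replicate 4. Without vehicle replicate 1 and AZ1366 replicate 1 together, a setting chosen after seeing the data, it was 20. Both of these libraries are outside the groups compared here, so leaving them out altered the estimated spread and no log2 change. The count of falls was 2 without gefitinib replicate 2, which is in a compared group.

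MRPS36 rose most, with 39.6, 35.9, 45.1 and 41.1 FPKM with the combination, against 26.7, 27.4, 27.8 and 32.6 FPKM with gefitinib, and no overlap (log2 change 0.48 ± 0.12 (SE), adjusted p = 0.00293). After the length and GC correction MRPS36 had 0.32, still called, and the largest member change was 0.43, in another gene. MRPS21 had 149, 153, 169.6 and 151 FPKM with the combination, against 115, 113, 118 and 135 FPKM with gefitinib (log2 change 0.37 ± 0.07 (SE), adjusted p = 0.00059). MRPL10, which anchors the stalk proteins, had 29.2, 29.8, 29.5 and 30.4 FPKM with the combination, against 24.2, 23.8, 23.9 and 25.5 FPKM with gefitinib. Its 4 combination libraries stood tightly above all gefitinib libraries, with a change of 0.28 ± 0.05 (SE), adjusted p = 0.000459. MRPS14 (0.30 ± 0.10), MRPL54 (0.27 ± 0.07), MRPL41 (0.26 ± 0.07), MRPS33 (0.25 ± 0.06) and MRPS28 (0.22 ± 0.06) followed, of which MRPL41 (adjusted p = 0.101) and MRPS28 (adjusted p = 0.246) were not called after the length and GC correction. The falls were small: MRPS9 (-0.29 ± 0.07), MRPL12 (-0.24 ± 0.08), MRPS2 (-0.19 ± 0.07), MRPL30 (-0.18 ± 0.06), MRPL3 (-0.16 ± 0.05) and MRPS5 (-0.15 ± 0.05). MRPS9 was the 1 still called after scaling (adjusted p = 0.0103).

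Added to AZ1366, gefitinib lowered 32 of the 73 genes and raised 7, against 35.7% and 26.9% of all loci. The member median of -0.13 lay 0.08 below that of all loci. After median-ratio scaling 25 fell and 7 rose, where 33.7% and 32.6% of loci did. In 26 genes the combination lay below all AZ1366 libraries and in 7 above, where 30.8% and 22.7% of loci did so. MRPS30 fell by 0.57 ± 0.15 (SE), adjusted p = 0.00328, although AZ1366 replicate 2 overlapped the combination libraries (34.1, 34.0, 31.2 and 31.6 FPKM with the combination, against 54.7, 33.0, 56.5 and 56.1 FPKM with AZ1366). MRPL1 had 41.5, 41.3, 43.6 and 41.3 FPKM with the combination, against 56.1, 55.2, 69.3 and 63.8 FPKM with AZ1366, without overlap (log2 change -0.53 ± 0.09 (SE), adjusted p = 8.26e-05). MRPL18, which in bacteria binds 5S ribosomal RNA, had 47.8, 42.8, 44.0 and 48.7 FPKM with the combination, against 62.7, 68.4, 66.2 and 66.9 FPKM with AZ1366 (log2 change -0.52 ± 0.07 (SE), adjusted p = 2.26e-06).

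The next largest falls were those of MRPL16 (-0.49 ± 0.06), MRPL12 (-0.48 ± 0.08), MRPS2 (-0.47 ± 0.07), MRPL15 (-0.39 ± 0.07) and MRPS12 (-0.38 ± 0.06). The 7 rises were led by MRPL54, a mitochondria-specific large-subunit protein, with 59.0, 63.2, 59.7 and 57.9 FPKM with the combination, against 44.1, 41.8, 47.4 and 45.1 FPKM with AZ1366 and no overlap (log2 change 0.42 ± 0.07 (SE), adjusted p = 3.19e-05). MRPS33 (0.33 ± 0.06), MRPS21 (0.31 ± 0.07), MRPL10 (0.23 ± 0.05), MRPS14 (0.23 ± 0.10), MRPL23 (0.22 ± 0.07) and MRPL33 (0.19 ± 0.07) followed. MRPS14 was not called after median-ratio scaling (adjusted p = 0.0566), nor MRPL23 and MRPL33 after the length and GC correction (adjusted p = 0.233 and 0.0681). Neither MRPS36 (0.12 ± 0.12, adjusted p = 0.391) nor MRPS18C (0.03 ± 0.12, adjusted p = 0.83) was called in this comparison.

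The gefitinib change with AZ1366 present (combination against AZ1366) and without it (gefitinib against vehicle) use separate libraries. Of the 32 genes that fell with AZ1366 present and the 33 that fell without it, 27 were in both. This is 84.4% of the first list and 81.8% of the second, against 83.6% and 80.9% over all loci. Of the 7 and 6 members that rose, 4 were in both (MRPL33, MRPS14, MRPS21 and MRPS33). These were 57.1% and 66.7%, against 83.6% and 81.2% over all loci. No member was called in opposite directions. Across the 73 genes the changes correlated with Pearson r = 0.814 and Spearman rho = 0.824, against r = 0.925 across all loci. For AZ1366, 5 of the 6 falls with gefitinib present and of the 13 without it were shared (MRPL12, MRPL3, MRPL30, MRPS2 and MRPS9). These were 83.3% and 38.5%, against 77.9% and 72.9% over all loci. Of the 13 and 18 member rises 8 were shared, which is 61.5% and 44.4%, against 75.8% and 62.2% over all loci. The AZ1366 changes correlated with r = 0.768 across the 73 genes and 0.84 across all loci. These correlations are across genes, which are not independent replicates.

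**Figure D3:**
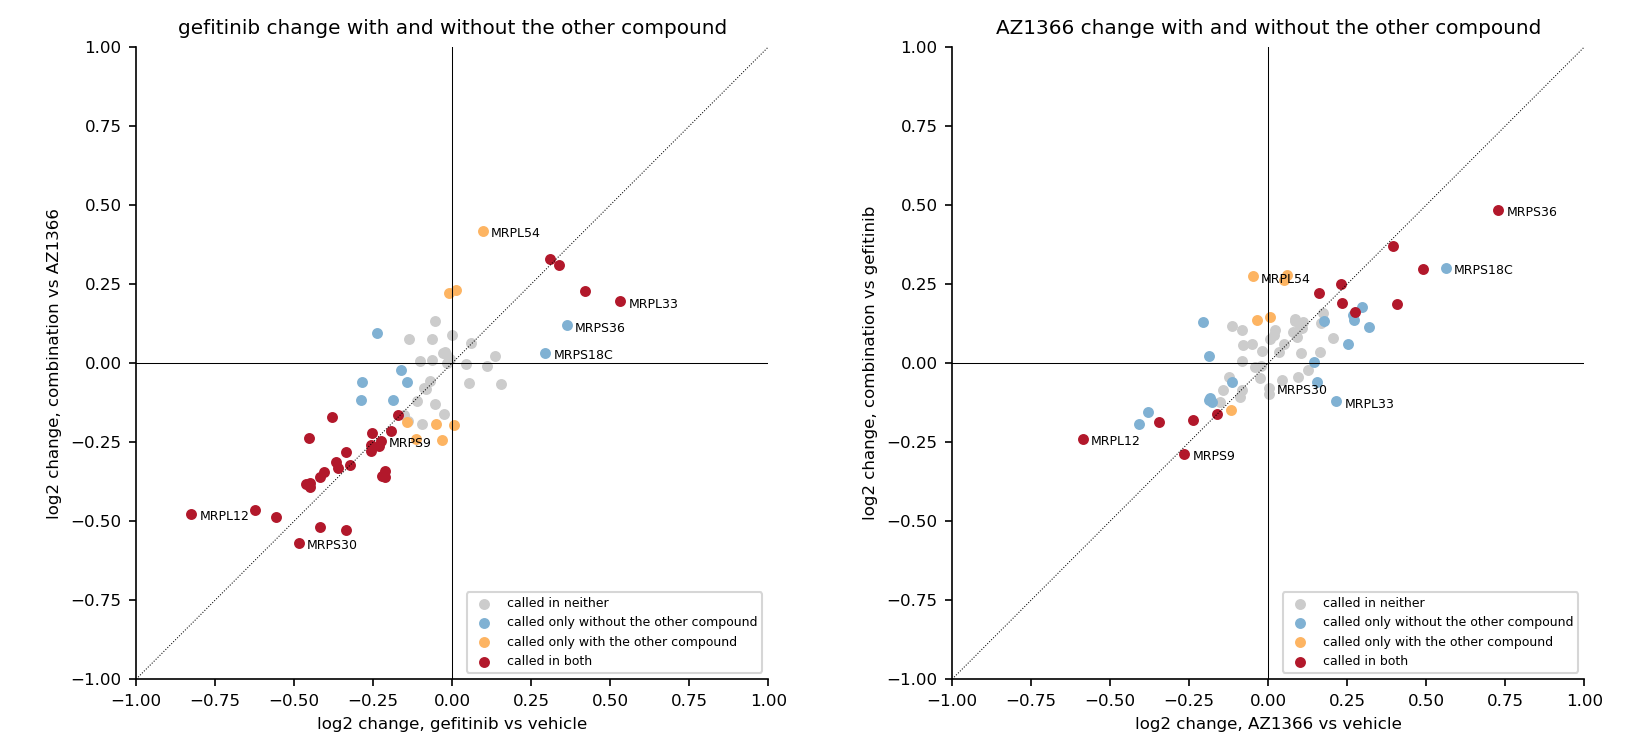
Log2 change of the 73 genes with gefitinib (left) and AZ1366 (right), with the other compound present (vertical axis) and without it (horizontal axis), each pair measured in separate libraries. The dotted line marks equal changes: 27 falls and 4 rises with gefitinib, and 5 falls and 8 rises with AZ1366, were called on both axes.

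In the interaction of gefitinib and AZ1366, limma called 0 of 73 as deposited, where 0.326% of all loci were called higher and 1.49% lower. At an unadjusted p under 0.05 there were 11 genes, beside 14.4% of all loci. After median-ratio scaling 0 were called as well, where 1.07% of loci were higher and 2.52% lower, with 7 genes at an unadjusted p under 0.05, beside 19.7% of all loci. MRPL12 had a positive interaction of 0.35 ± 0.11 (adjusted p = 0.133) and MRPL33 a negative one of -0.34 ± 0.10 (adjusted p = 0.103). MRPL33 was called lower with the replicate block (adjusted p = 0.0492), without AZ1366 replicate 1 (adjusted p = 0.0237), without that library and vehicle replicate 1 (adjusted p = 0.0284) and after quantile normalization (adjusted p = 0.033), which also called MRPL12 higher (adjusted p = 0.0272). A miss of the threshold does not show that the changes add up. After the length and GC correction 2 were called higher, MRPL54 (0.27, adjusted p = 0.00881) and MRPS15 (0.35, adjusted p = 0.0282), both named after their values were seen, where 2.19% of loci were called higher and 3.41% lower. Across the 73 genes the interaction correlated with the GC content of the transcript at Spearman rho = 0.735, against 0.485 across 11506 tested loci with a GC value.

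Summed over the 73 genes, the FPKM came to 3525 ± 24.8 with the combination, 3370 ± 161 with gefitinib, 3764 ± 132 with AZ1366 and 3642 ± 125 with vehicle (SD, n = 4 each). After median-ratio scaling the sums were 3752 ± 171 with the combination, 3306 ± 215 with gefitinib, 3862 ± 373 with AZ1366 and 3416 ± 147 with vehicle. Every combination library (3571 to 3933) then lay above every vehicle library (3205 to 3518). As deposited, the combination libraries (3499 to 3557) had lain within the range of the vehicle libraries (3479 to 3750). As a share of all deposited FPKM, which scaling does not alter, the sum was 0.743 ± 0.00517% with the combination, 0.746 ± 0.0157% with gefitinib, 0.825 ± 0.0286% with AZ1366 and 0.822 ± 0.0130% with vehicle. The combination and gefitinib libraries, at 0.735% to 0.745% and 0.730% to 0.767%, lay below all AZ1366 (0.784% to 0.851%) and vehicle (0.803% to 0.831%) libraries. Large-subunit genes summed to 1.92 ± 0.0186 times the small-subunit genes with the combination, 2.01 ± 0.0274 with gefitinib, 2.002 ± 0.0284 with AZ1366 and 2.03 ± 0.0191 with vehicle. Every combination library (1.90 to 1.94) lay below every library of the other groups (1.96 to 2.05). Within the small-subunit sum, MRPS21 alone averaged 155.6 FPKM with the combination and 95.1 FPKM with vehicle. The ratio without MRPS21 was not tested, so a shift of a whole subunit is not shown.

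Other lists of ribosomal and mitochondrial genes gave other counts. The share of FPKM from 74 cytosolic ribosomal protein genes was 18.6 ± 0.837% with the combination, 15.6 ± 1.11% with gefitinib, 16.5 ± 1.32% with AZ1366 and 13.9 ± 0.607% with vehicle. The share from 73 nuclear genes of oxidative phosphorylation subunits was 2.24 ± 0.0899% with the combination, 1.89 ± 0.116% with gefitinib, 1.96 ± 0.155% with AZ1366 and 1.60 ± 0.0752% with vehicle (SD, n = 4 each). With gefitinib against vehicle 32 of the 74 cytosolic genes rose and 1 fell (median 0.16), and 39 of the 73 oxidative phosphorylation genes rose and 8 fell (median 0.19), where 27.7% of all loci were higher and 36.9% lower. With the combination against vehicle 65 cytosolic genes rose and 0 fell (median 0.47), and 55 oxidative phosphorylation genes rose and 5 fell (median 0.44), against a median of -0.05 for the mitochondrial ribosomal protein genes. Of all loci 29.9% were higher and 49.4% lower with the combination. After the length and GC correction the cytosolic genes had 20 rises and 7 falls with gefitinib (median 0.05) and 50 and 4 with the combination (median 0.26). The oxidative phosphorylation genes then had 34 rises and 13 falls with gefitinib (median 0.12) and 48 and 12 with the combination (median 0.30). Of all loci 33.5% were then higher and 38.2% lower with gefitinib, and 40% and 41.4% with the combination. Lists are described by counts only, and the difference between them was not tested.

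**Figure D4:**
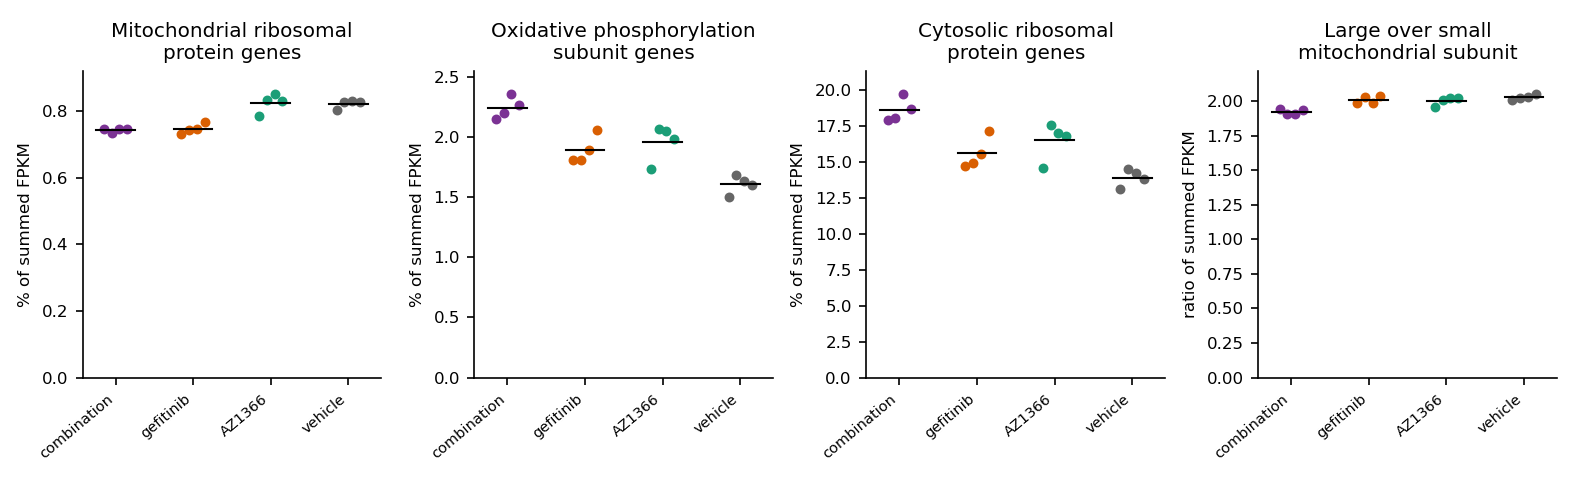
Share of the summed FPKM (vertical axis of the first 3 panels, %, from 0) and the large to small subunit ratio (last panel), per library (points) with the group mean (line, n = 4). The mitochondrial ribosomal protein share lies lower with the combination and gefitinib, while the shares of the other 2 lists are highest with the combination, and the ratio is lowest there. The small-subunit sum of the ratio includes MRPS21, an abundant gene that rose with the combination.

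The 7 proteins of the mitochondrial ribosome with other names mostly fell with gefitinib (6 lower and 1 higher, median -0.37), where 36.9% of all loci were lower. ICT1, a peptidyl-tRNA hydrolase built into the large subunit, averaged 47.5 ± 3.16 FPKM with gefitinib and 65.6 ± 1.79 FPKM with vehicle (SD, n = 4 each), a log2 change of -0.46 ± 0.05 (SE), adjusted p = 6.19e-07. AURKAIP1 (-0.42 ± 0.08), GADD45GIP1 (-0.37 ± 0.07), PTCD3 (-0.31 ± 0.05) and DAP3, a GTP-binding small-subunit protein (-0.20 ± 0.05), fell, as did MRP63 (-0.37 ± 0.07). CHCHD1, of the small subunit, rose by 0.26 ± 0.07 with gefitinib and by 0.52 ± 0.07 with the combination. With the combination 6 of the 7 fell and 1 rose, and with AZ1366 3 fell and 1 rose, where 49.4% and 39.8% of all loci were lower. After median-ratio scaling 5 fell and 1 rose with gefitinib and with the combination, and 2 fell and 1 rose with AZ1366. Of all loci 33.9%, 40.3% and 30.3% were then lower with gefitinib, the combination and AZ1366.

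Of 25 assembly and ribosomal RNA modification genes 17 (68%) fell and 1 rose with gefitinib (median -0.26), 12 (48%) fell and 1 rose with AZ1366, and 19 (76%) fell and 2 rose with the combination. Of all loci 36.9%, 39.8% and 49.4% were lower and 27.7%, 18.6% and 29.9% higher. After median-ratio scaling 15 (60%) of the 25 fell and 1 rose with gefitinib, 7 (28%) fell and 4 rose with AZ1366 (median -0.03), and 15 (60%) fell and 5 rose with the combination. Of all loci 33.9%, 30.3% and 40.3% were then lower and 33.1%, 30.4% and 40.4% higher. RNMTL1, an rRNA methyltransferase with the smallest p of the list, changed by -0.51 ± 0.05 (SE), adjusted p = 2.59e-07 with gefitinib. FTSJ2, another such enzyme, averaged 33.3 ± 2.24 FPKM with gefitinib and 49.99 ± 3.85 FPKM with vehicle, a change of -0.57 ± 0.09 (SE), adjusted p = 3.64e-05. DHX30, a helicase needed for assembly, changed by -0.58 ± 0.10 (SE), adjusted p = 8.93e-05. Of 16 genes listed under mitochondrial translation, not all of them translation factors, 10 fell and 3 rose with gefitinib (9 and 3 after scaling). Among those that fell were C1QBP (-0.58 ± 0.07, adjusted p = 1.26e-06) and GFM1, the elongation factor G of mitochondria (-0.47 ± 0.05, adjusted p = 3.63e-07). MTIF3, an initiation factor, rose by 0.31 ± 0.06 (adjusted p = 0.000156). With gefitinib 36.9% of all loci were lower and 27.7% higher as deposited, and 33.9% and 33.1% after scaling. Of 8 genes of mitochondrial DNA transcription and replication 5 fell and none rose with gefitinib (4 and 0 after scaling). The smallest p of this list was that of C10orf2, the gene of the mitochondrial DNA helicase Twinkle, which changed by -0.67 ± 0.07 with gefitinib and -1.25 ± 0.07 with the combination. POLRMT, the mitochondrial RNA polymerase, fell by 0.62 ± 0.11 with gefitinib and by 0.97 ± 0.11 with the combination, and TFAM, which packages mitochondrial DNA, changed by -0.47 ± 0.05 with gefitinib and -0.80 ± 0.05 with the combination.

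Among 7 tested regulators of mitochondrial biogenesis 5 fell with gefitinib, 5 with AZ1366 and 5 with the combination, and none rose. Of all loci 36.9%, 39.8% and 49.4% were lower. After median-ratio scaling 5 of the 7 fell with gefitinib, 3 with AZ1366 and 5 with the combination, where 1 rose. Of all loci 33.9%, 30.3% and 40.3% were then lower. MYC averaged 1.402 ± 0.192 FPKM with the combination, 2.79 ± 0.0824 FPKM with gefitinib, 3.02 ± 0.343 FPKM with AZ1366 and 5.73 ± 0.762 FPKM with vehicle (SD, n = 4 each). Against vehicle its changes were -1.48 ± 0.08 with the combination, -0.82 ± 0.08 with gefitinib and -0.74 ± 0.08 with AZ1366. PPRC1, a coactivator of the PGC-1 family, changed by -1.29 ± 0.10 with the combination, -0.68 ± 0.10 with gefitinib and -0.70 ± 0.10 with AZ1366. NRF1, a factor that binds promoters of nuclear genes for mitochondrial proteins, changed by -0.53 ± 0.09 with the combination, -0.40 ± 0.09 with gefitinib and -0.22 ± 0.09 with AZ1366, the last not called after scaling (adjusted p = 0.26). YY1 averaged 32.3 ± 6.60 FPKM with the combination, 46.0 ± 8.25 FPKM with gefitinib, 39.7 ± 15.2 FPKM with AZ1366 and 65.2 ± 3.01 FPKM with vehicle. Whether these genes bear on the ribosomal protein genes was not tested.

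The genes have short transcripts, with a median of 1406 nucleotides, against 2783.5 for all tested loci, and nearly the same GC content (medians 48.9% and 48.8%). Across all loci the changes correlated with transcript length, at Spearman rho = -0.335 for the combination against vehicle and -0.38 for AZ1366 against vehicle, while within the 73 genes rho was -0.0889 and 0.135. Within the 73 genes the AZ1366 change correlated with GC content (rho = -0.625, against -0.192 across all loci). The correction below was fitted over all loci. Within the 73 genes, rho with length was then 0.207 for gefitinib, 0.508 for AZ1366 and 0.267 for the combination, all against vehicle. Across all loci these were at most 0.0111. For the combination, the member rho went from -0.124 to 0.416 against gefitinib and from -0.225 to 0.0367 against AZ1366. How far this relation shapes the corrected counts was not tested. Corrected for smooth trends in length and GC, 49 of the 73 fell and 4 rose with gefitinib, 25 fell and 12 rose with AZ1366, and 44 fell and 12 rose with the combination, all against vehicle. Of all loci, 38.2% were then lower and 33.5% higher with gefitinib, 30.7% and 29.5% with AZ1366, and 41.4% and 40% with the combination. The median of the members lay at -0.17 from that of all loci with gefitinib, at -0.04 with AZ1366 and at -0.18 with the combination. In the same correction 15 fell and 12 rose for the combination against gefitinib, where 25.9% and 27.7% of loci did, and 39 fell and 5 rose against AZ1366, where 36.2% and 34.2% did. The sign of the member median relative to all loci therefore differed between the treatments of the values for AZ1366 and the combination against vehicle and for the combination against gefitinib (0.16 as deposited and -0.007 after this correction), and was below for gefitinib against vehicle in all 3.

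**Figure D5:**
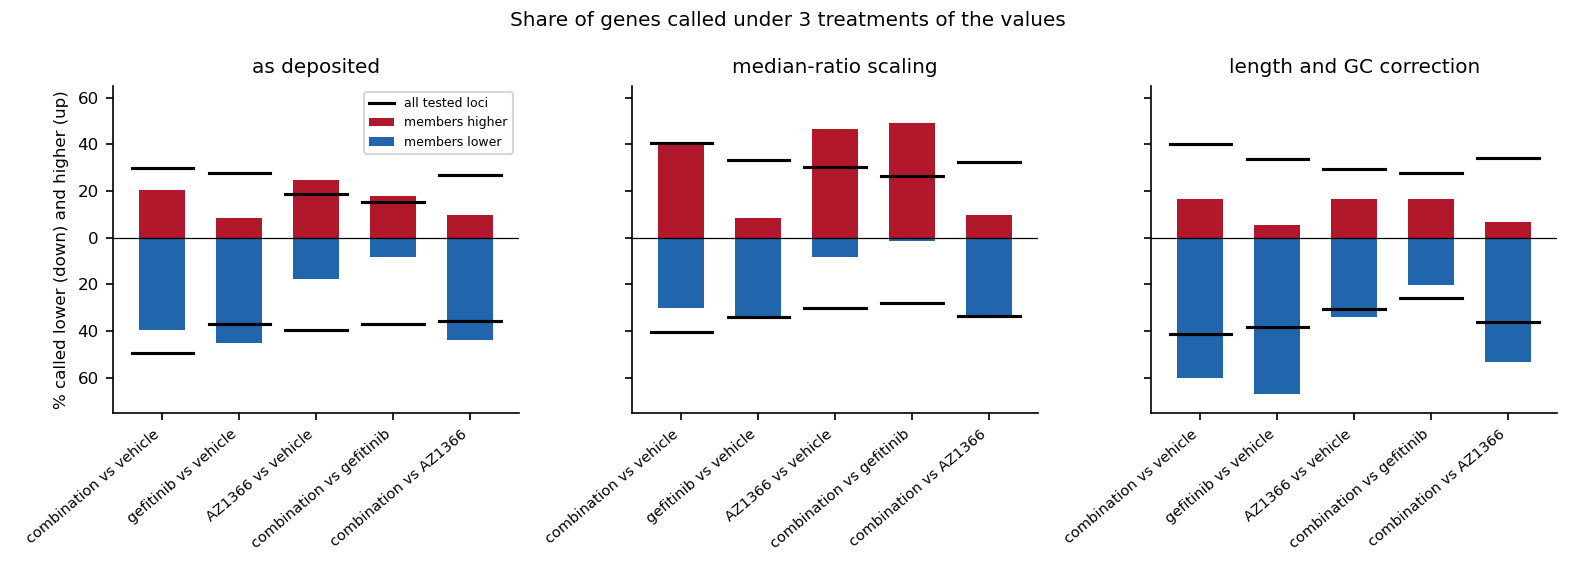
Percent of the 73 genes called higher (upward bars) and lower (downward bars) in 5 comparisons, for values as deposited, after median-ratio scaling and after correction for transcript length and GC, with black lines for all tested loci. With gefitinib against vehicle falls outnumber rises in all 3 panels, while the AZ1366 and combination bars change: AZ1366 against vehicle has 18 higher and 13 lower as deposited, and 34 and 6 after scaling.

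RefSeq promoter windows, from 250 bases before to 50 bases after the start on GRCh38.p14, were matched for 64 of the 73 genes, giving 80 windows. The ETS letters CCGGAAG, sought on both strands as were all motifs, stood in 38.8% of these windows, against 16.9% of the windows of all tested genes and 10.3% of all promoters. The YY1 letters AAGATGG stood in 32.5%, against 7.26% and 5.84%. In 16 of the 80 windows AAGATGG lay after the start on the strand of the gene, as in MRPS30 above, against 3.21% of the windows of tested genes. The full palindromic NRF1 motif was found in 1.25%, against 1.9% and 1.24%. Its short form TGCGCA was found in 18.8%, against 1446 of 12072 windows of tested genes and 8.24% of all promoters. The E-box CACGTG, which MYC can bind, was found in 11.2%, against 9.29% and 7.26%. The full NRF1 motif does not hold TGCGCA whole. In no member window did the ETS and YY1 letters overlap.

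By response to gefitinib, the ETS letters were in 4 of 6 windows of genes that rose, in 13 of 37 of genes that fell and in 14 of 37 of genes not called. The YY1 letters were in 0 of 6, 10 of 37 and 16 of 37. These are matches of letters, with no test. Of the 64 genes, 17 (26.6%) had a tested neighbour that starts within 1000 bases on the other strand, against 987 of 8157 tested genes (12.1%). The pairs that follow were chosen after their values were seen. MRPL46 and MRPS11, of different subunits, start 320 bases apart and both fell with gefitinib, with changes of -0.16 ± 0.06 and -0.19 ± 0.07 (adjusted p = 0.0221 and 0.0189). Neither call was kept in every alternative setting. MRPL18 and the chaperonin gene TCP1 start 210 bases apart, with gefitinib changes of -0.42 and -0.46. MRPL30 and MITD1 start 126 bases apart and went opposite ways, with gefitinib changes of -0.41 and 0.31 (adjusted p = 0.000711 for MITD1).

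Counting limits some genes. Of the 73, 31 have named pseudogenes in GENCODE (67 in all), and how reads that match several places were shared is not given, so their levels are uncertain. The loci of 11 overlap another locus, among them MRPL3, MRPS12, MRPS18C and MRPS25, and whether the counting used strand is not stated. Genes joined with a neighbour in 1 locus were not members: the locus of CCDC142 and MRPL53 rose by 0.31 ± 0.07 with the combination against vehicle (adjusted p = 0.000902).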

How the data were processed

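PolyA RNA of 16 HCC4006 libraries, 4 in each of 4 treatment groups, was sequenced by the authors. The tools named are Cuffdiff, Cufflinks 1.3.0 and TopHat 1.4.1 on build hg19, per the submitters' processing notes. The authors deposited FPKM per locus, and any scaling between libraries and the use of strand are not given in the sources used here. Depth is unknown, so no counting interval is given. No batch is given in the labels, and 0 columns of per-sample values were left unused.

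From the deposited FPKM, loci with a mean of at least 1 FPKM (11647 of 24293) were tested on log2(FPKM + 1) with limma 3.58.1 in R 4.3.3, with a trended prior and 12 residual degrees of freedom. The fit held all 4 groups and no covariate. Tests were two-sided, p-values were adjusted over all tested loci (Benjamini-Hochberg), and an adjusted p under 0.05 was called. Fold changes on this scale understate those of low genes. The fit was tested on simulated data. Alternatives were a pseudocount of 0.1, no filter, a mean of at least 5 FPKM, median-ratio scaling, quantile normalization, a length and GC correction with 5 spline terms each, no trend, the libraries compared alone, the replicate number as a block, and each library left out.

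Members and gene lists were chosen with earlier results of these data known. The genes named are the 8 largest rises and 8 largest falls called in each comparison, the 4 highest and 4 lowest means, a fixed set (MRPL12, MRPL41, MRPL44, MRPL3, MRPS12, MRPS30, MRPS36 and the 3 S18 relatives) and part of the genes with the 3 smallest p of their list in any comparison. Others named are said to be chosen after their values were seen, or complete a list. Of the cell type markers, 1 is not reported here.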

Additional observations from a re-analysis of the deposited data

Results flagged for a closer look

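Over the levels of the 37 named genes, the summed FPKM of the 73 and the large to small subunit ratio, 6 groups of 4 libraries (3.85% of the groups) held a library whose gap to its nearest neighbour, divided by the range of the group, passed Dixon's 95% critical value, which chance passes in about 1 group in 20. MRPS30 had 33.0 FPKM in AZ1366 replicate 2, against 54.7 to 56.5 FPKM in the other AZ1366 libraries. MRPS18C had 41.2 FPKM in AZ1366 replicate 1, against 60.1 to 63.8 FPKM in the others. MRPL15 had 26.8 FPKM in AZ1366 replicate 1, against 32.4 to 32.8 FPKM in the others. MRPL1 had 43.6 FPKM in combination replicate 3, against 41.3 to 41.5 FPKM in the others. Vehicle replicate 4 was low for MRPS9, with 27.0 FPKM against 31.1 to 31.9 FPKM, and for MRPS18B, with 69.3 FPKM against 72.0 to 72.4 FPKM.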

How the results depend on the processing

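With gefitinib against vehicle, the member median was -0.0732 after median-ratio scaling and -0.20 after the length and GC correction. With AZ1366 against vehicle, 34 members were higher and 6 lower (median 0.16) after median-ratio scaling, 28 and 8 after quantile normalization, and 25 were lower (median -0.0429) after the length and GC correction. With the combination against vehicle, 30 were higher (median 0.13) after median-ratio scaling, 24 (median 0.0300) after quantile normalization, and 44 were lower (median -0.19) after the length and GC correction. With the combination against gefitinib, 36 were higher and 1 lower (median 0.18) after median-ratio scaling, 23 and 3 after quantile normalization, 15 lower after the length and GC correction, and 20 higher and 9 lower without vehicle replicate 1 and AZ1366 replicate 1, a setting chosen after seeing the data. The shares of all loci called higher and lower after quantile normalization, or with libraries left out, are not given. Those member counts therefore have no background beside them. In the interaction 212 loci were called, 419 after median-ratio scaling, 620 after quantile normalization and 644 after the length and GC correction. Of the members, the interaction then had 1 higher and 1 lower after quantile normalization, 2 higher after the length and GC correction, and 1 lower without both libraries named above. After the length and GC correction MRPL33 (-0.10, adjusted p = 0.102) and MRPS25 (0.0292, adjusted p = 0.726) with AZ1366, and MRPS18A (-0.0198, adjusted p = 0.698) with the combination, took the other sign. The cause was not tested.

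Leaving out 1 library at a time gave 4 to 8 members higher and 28 to 38 lower with gefitinib, 13 to 23 and 10 to 14 with AZ1366, and 13 to 17 and 27 to 30 with the combination, all against vehicle. It gave 7 to 22 higher and 2 to 8 lower for the combination against gefitinib, and 5 to 7 and 27 to 35 against AZ1366. In the interaction it gave 0 to 1 member higher, 0 to 1 lower and 101 to 513 loci in all, with 513 without AZ1366 replicate 1 and 101 without vehicle replicate 4. Of the members called as deposited, 29 of 39 with gefitinib, 16 of 31 with AZ1366, 31 of 44 with the combination against vehicle, 6 of 19 against gefitinib and 26 of 39 against AZ1366 stayed called in the same direction in every setting.

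The replicate numbers were not taken as pairs in the main fit. Of 24 correlations between the deviations of same-numbered libraries (-0.447 to 0.539) 16 were over 0.1. Those of different-numbered libraries are not given beside them, and whether spread was shared by number was not tested. Those of replicate 1 were all positive (0.207 to 0.539), while those of replicate 2 reached -0.447. For 2 of 16 libraries the best match in every other group had their own number. The replicate block raised the loci called in every comparison, for gefitinib against vehicle from 7521 to 7864. With the replicate block, 7 members were higher and 34 lower with gefitinib, 18 and 13 with AZ1366, and 16 and 29 with the combination against vehicle, 17 and 6 against gefitinib, 7 and 34 against AZ1366, and 0 and 1 in the interaction, which called 227 loci. Unknown depth, multi-mapped reads and the strand of counting limit single genes.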
